A study of Mus musculus with 33 samples.

Results

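SSU-Um428, SSU-Cm462, SSU-Am468, SSU-Am484, SSU-Gm509, SSU-Am512 and SSU-Cm517 are 7 ribose-methylated nucleotides of 18S ribosomal RNA that lie within 90 nucleotides of each other. They are the 18S sites of the authors' table in a range of human positions that opens 3 nucleotides before 428 and closes 3 after 517, with SSU-Gm436 left out. This is 7 of the 40 sites listed in 18S rRNA and 7 of 108 listed in all. Names give the human position, and in mouse 18S rRNA each of the 7 lies 2 nucleotides further on. Methylation was measured by RiboMeth-seq in RNA from adult mouse brain, heart, kidney, liver and lung, from the same 5 tissues of mouse embryos at embryonic day E16.5, and from whole heads of embryos at E9.5. Each of the 11 groups had 3 libraries, called biological replicates by the submitters. The labels name no strain, genotype or treatment, give no age for the adults and do not say whether tissue of several animals was pooled. All samples were bulk tissue, so a score is an average over the cells of a tissue, and a different mix of cells and a different score within one cell type cannot be told apart. The files hold rRNA read ends only, so the tissue labels could not be checked against marker genes.

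Box C/D snoRNAs pair with rRNA and direct the methyltransferase fibrillarin, held in a particle with NOP56, NOP58 and SNU13, to a single nucleotide, whose 2′-hydroxyl then carries a methyl group. A methylated ribose resists cleavage by alkali, so fewer fragments start or stop at that nucleotide than at its neighbours. The RiboMeth-seq score is 1 minus the read ends at a nucleotide over the weighted mean at its 6 neighbours on each side. It is 0 where ends are as frequent as around it and 1 where there are none. Each fragment gives a 5′ end and a 3′ end, and the deposited score uses their sum. All 7 sites lie in the 5′ domain of 18S rRNA. The snoRNAs assigned to them in human are SNORD68 for SSU-Um428, SNORD14 for SSU-Cm462, SNORD83 for SSU-Am468, SNORD16 for SSU-Am484, SNORD11 for SSU-Gm509, SNORD70 for SSU-Am512 and SNORD56 for SSU-Cm517. SNORD14, also called U14, is known in yeast as a snoRNA that is needed for cleavage of the 18S precursor as well as for methylation.

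The stretch that holds the 7 sites is shown as the authors' sheets spell it, from mouse 18S position 427 to 522, with the 7 methylated nucleotides in capitals. The 13 nucleotides over which the score is taken are shown again for SSU-Um428, SSU-Cm462 and SSU-Gm509, on which most of the results turn, with every one of the 7 sites in capitals.
18S 427 to 522: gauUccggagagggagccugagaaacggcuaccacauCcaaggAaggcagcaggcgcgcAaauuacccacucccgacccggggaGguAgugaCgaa
SSU-Um428: uucgauUccggag
SSU-Cm462: ccacauCcaaggA
SSU-Gm509: cggggaGguAgug
The score windows overlap. SSU-Cm462 and SSU-Am468 are 6 nucleotides apart, SSU-Gm509 and SSU-Am512 are 3 apart, and SSU-Am512 and SSU-Cm517 are 5 apart, so the read ends missing at one of them lower the neighbourhood against which the other is scored. SSU-Am484 is 16 nucleotides from the nearest listed site. Leaving listed neighbours out of the window moved the mean score over the 33 libraries to 0.693 at SSU-Cm462 and to 0.886 at SSU-Gm509, against 0.674 and 0.872 with all neighbours, and by less at the others.

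Of 10 mouse snoRNA gene names looked up for these guides, 9 were in the RefSeq table of assembly GRCm38.p6, and all 9 lay inside a host gene. Snord68 lies on chromosome 8 from 123103058 to 123103105 within Rpl13. Snord14a lies on chromosome 7 from 116333171 to 116333257 within Rps13, and Snord14c, Snord14d and Snord14e lie between 40803583 and 40804838 on chromosome 9 within Hspa8. Snord83b is on chromosome 15 from 80078503 to 80078579 within Rpl3, and Snord16a on chromosome 9 from 64175432 to 64175522 within Rpl4. Snord11, from 59704808 to 59704870, and Snord70, from 59691958 to 59692010, both lie on chromosome 1 within Nop58, the gene of a core protein of the methylating particle, and they guide sites that are neighbours in 18S rRNA. Most of the hosts encode ribosomal proteins (Rpl13, Rps13, Rpl3, Rpl4), while Hspa8 encodes a chaperone. The name that was not found was Snord56, looked up for SSU-Cm517.

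Libraries held between 463388 and 35156406 read ends. The third E16.5 lung library was the shallowest and had only 12.7 to 70.4 read ends in the neighbourhoods of the 7 sites, where the median over libraries was 715 to 1329. Counting error alone gave the score of a library an SD with a median of 0.00562 to 0.0156 by site and a maximum of 0.153. The authors' table corrects 28 sites for barcode effects, and none of the 7 is among them. Corrected sites were found as group means that differ from the means of the deposited scores. Of 107 such group means, 9 could not be rebuilt by taking 5′ ends alone in some libraries. The groups that the authors corrected at SSU-Am1031 and at SSU-Gm683, outside the stretch, were used to divide the libraries into 3 sets. The labels name no such sets, so they are inferred. Set 1 holds adult brain and liver, set 2 holds adult kidney and lung, E16.5 brain and heart and the E9.5 heads, and set 3 holds adult heart with E16.5 kidney, liver and lung. In each of the 5 tissues the adult libraries sit in one set and the E16.5 libraries in another, so an effect of stage and one of library set cannot be told apart there.

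SSU-Am512, SSU-Am484, SSU-Cm517 and SSU-Am468 were close to fully methylated in all groups, SSU-Um428 and SSU-Gm509 somewhat less, and SSU-Cm462 was low and scattered. Over the 33 libraries SSU-Am512 averaged 0.952 with a range of 0.894 to 1.0, and SSU-Am484 averaged 0.948 with a range of 0.764 to 0.995. SSU-Cm517 averaged 0.945 (0.848 to 0.989) and SSU-Am468 averaged 0.939 (0.744 to 0.981). These 4 sites scored at least 0.9 in 32, 29, 31 and 28 libraries. SSU-Um428 averaged 0.908 (0.746 to 0.976) and reached 0.9 in 23 libraries, SSU-Gm509 averaged 0.872 (0.653 to 0.982) and reached it in 14, and SSU-Cm462 averaged 0.674 (0.0794 to 0.984) and reached it in 5. For scale, the 107 listed sites tested had a median of 0.926, and the 88 nucleotides of the stretch that are not listed had a median of 0.134. Of those 88, 2 averaged 0.5 or more, G at mouse position 442 with 0.679 and A at 491 with 0.570. The mean summed score of SSU-Cm462 thus lay beside that of an unlisted nucleotide of the same stretch, whereas from 5′ ends alone SSU-Cm462 averaged 0.981. SSU-Gm436, the listed site inside the stretch that was left out, averaged 0.311 over the 33 libraries, lower than the mean of any of the 7. Its group means ran from 0.0161 to 0.762.

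**Figure D1:**
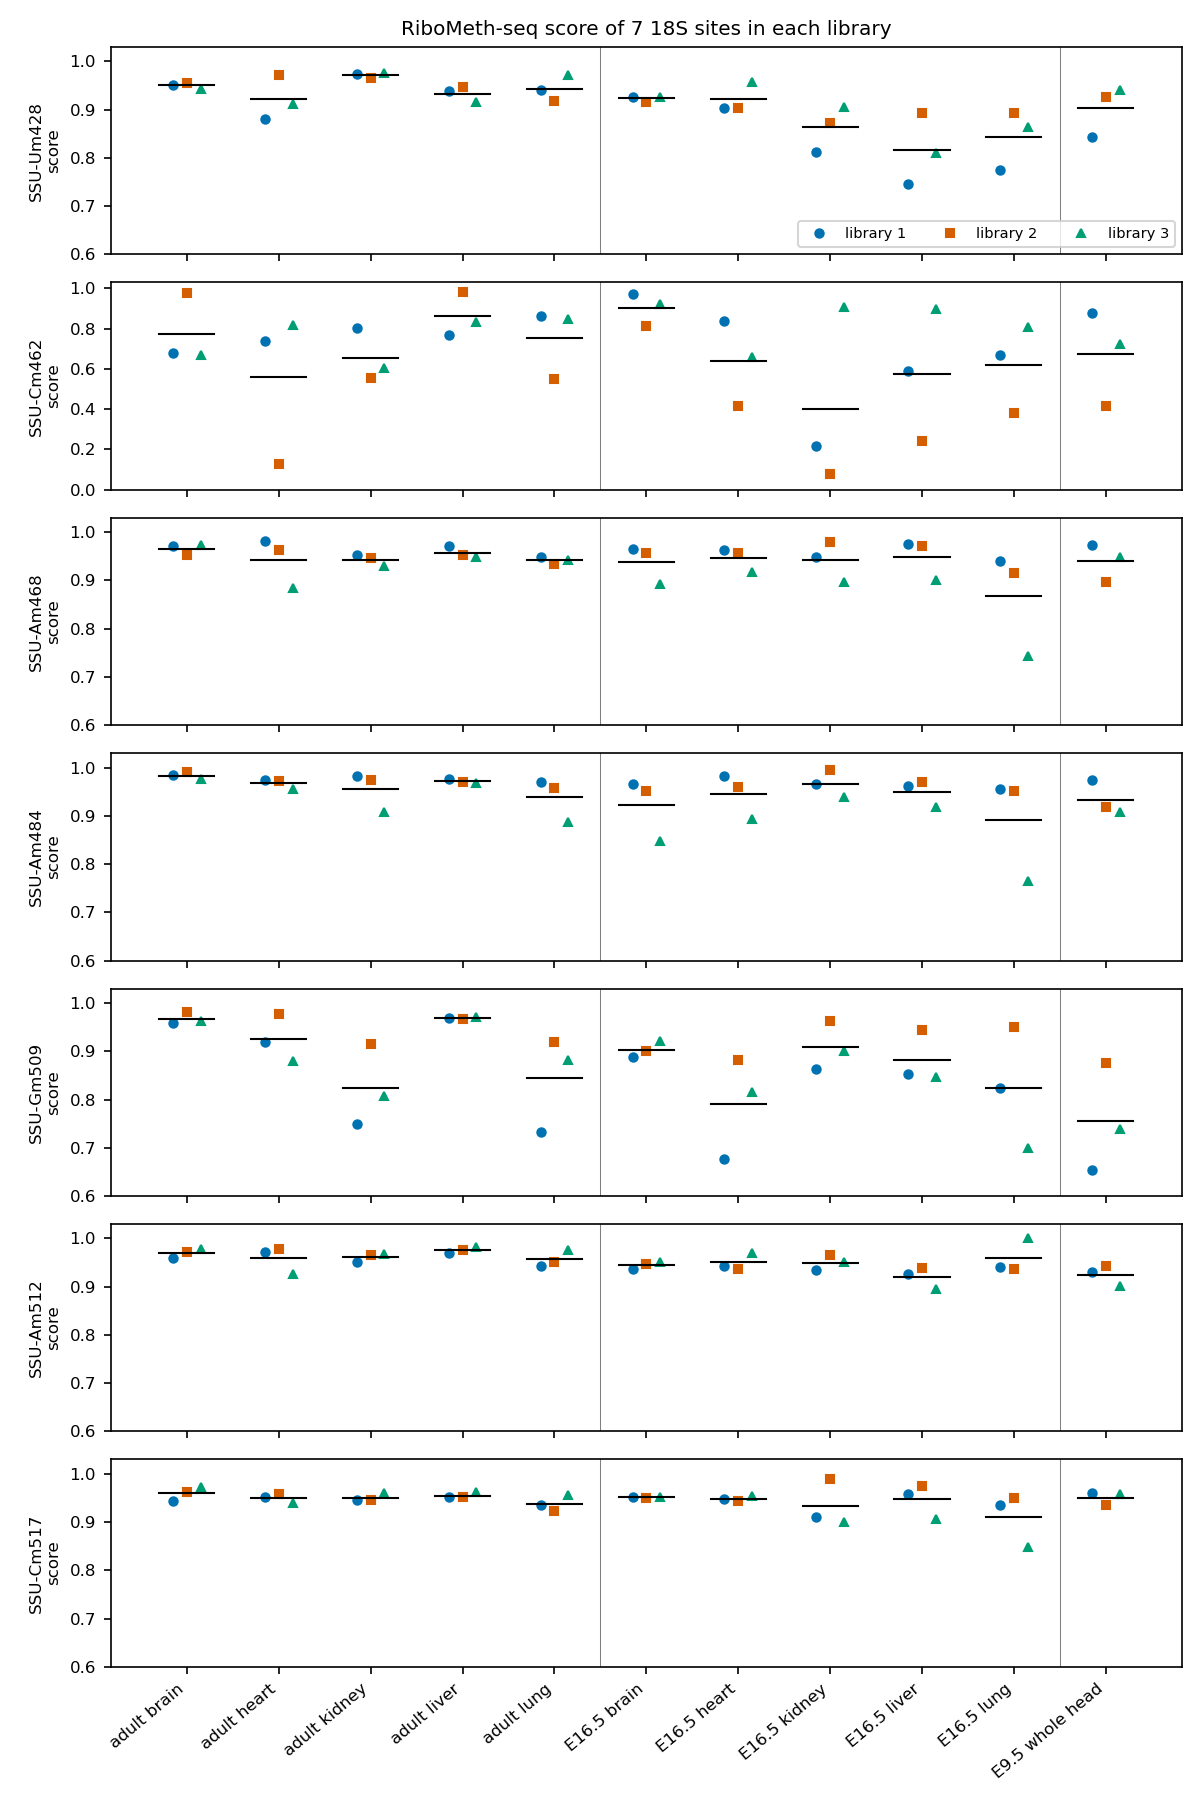
Score (0 to 1) of each of the 7 sites in every library, by group, with a black line at the mean of 3 libraries and a marker for each library number. The axis runs from 0 for SSU-Cm462 and from 0.6 for the others. SSU-Um428 is lowest in E16.5 kidney, liver and lung, SSU-Gm509 is lowest in E9.5 whole heads, and SSU-Cm462 spreads widely within nearly every group.

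SSU-Um428 was higher in adults than at E16.5 in the mean over 5 tissues, and taken singly it passed in kidney, liver and lung. In adult liver it scored 0.938, 0.947 and 0.916, against 0.746, 0.893 and 0.810 in E16.5 liver. In adult kidney it scored 0.974, 0.966 and 0.976, against 0.813, 0.872 and 0.906 in E16.5 kidney. In adult lung it scored 0.940, 0.919 and 0.973, against 0.776, 0.893 and 0.864 in E16.5 lung. All adult libraries lay above all E16.5 libraries in each of these 3 tissues, and the E16.5 libraries were also the more scattered. In brain the values were 0.952, 0.956 and 0.943 in adults and 0.926, 0.917 and 0.927 at E16.5, which do not overlap either but lie close together. In heart they were 0.880, 0.973 and 0.911 in adults and 0.903, 0.904 and 0.957 at E16.5, with full overlap.

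The difference at SSU-Um428, tested with limma over all 107 sites, was 0.117 ± 0.0341 (SE) in liver (adjusted p = 0.0102), 0.108 ± 0.0341 in kidney (adjusted p = 0.0384) and 0.0996 ± 0.0341 in lung (adjusted p = 0.0461). It did not pass the threshold of 0.05 in brain (0.0273, adjusted p = 0.784) or heart (-0.00048, adjusted p = 0.989). The SE pools the spread of all 11 groups, whose SDs at this site ran from 0.00517 in adult kidney to 0.0740 in E16.5 liver. With the compared groups fitted alone, liver (limma adjusted p = 0.109), kidney (0.108) and lung (0.341) did not pass. Over the 5 tissues the mean was 0.944 in adults and 0.874 at E16.5, a difference of 0.0704 ± 0.0153 with a limma adjusted p of 0.000572. The median difference of all 107 sites in that comparison was 0.0324, so sites in general scored higher in adults, and SSU-Um428 lay above that median. With the medians of all libraries set equal, the mean difference at SSU-Um428 was 0.0367 (adjusted p = 0.0427), while the tissue calls ended, with 0.0627 in liver (adjusted p = 0.176), 0.0733 in kidney (0.131) and 0.0586 in lung (0.205). A limma F test did not call the adult minus E16.5 difference at SSU-Um428 different between tissues (adjusted p = 0.319).

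The tissues in which SSU-Um428 passed are those whose E16.5 libraries belong to set 3. The site averaged 0.942 in set 1, 0.933 in set 2 and 0.861 in set 3, and within set 3 the adult heart libraries averaged 0.921, against 0.816 to 0.863 for the 3 E16.5 groups. Weighting heart, kidney and lung so that set differences cancel gave 0.0518 ± 0.0209 at SSU-Um428, which missed the threshold in limma (adjusted p = 0.103). In the mean over tissues both kinds of read end gave a higher score in adults. From 5′ ends alone the mean difference was 0.0480 ± 0.0115 (limma adjusted p = 0.000885), and from 3′ ends alone it was 0.139 ± 0.0355 (limma adjusted p = 0.00549). The drop at E16.5 was deeper in 3′ ends, where E16.5 kidney, liver and lung averaged 0.684, 0.666 and 0.680, against 0.967, 0.901 and 0.923 in the adult tissues. In brain and heart the 3′ ends averaged 0.902 and 0.838 in adults, against 0.907 and 0.897 at E16.5, so neither adult mean was the higher. In E16.5 liver, libraries 1 and 3 are among the 5 shallowest of the series. Without those 5 libraries the liver difference at SSU-Um428 was 0.0401 (limma adjusted p = 0.624) and rested on a single E16.5 liver library, while the mean over tissues was 0.0588 (adjusted p = 0.00499). Leaving out a single library, the mean over tissues passed in all 33 cases. The liver call was lost without the first E16.5 liver library (0.0817, adjusted p = 0.0883), and the kidney call was lost in 5 cases, with 0.0832 and an adjusted p of 0.241 without the first E16.5 kidney library. The lung call, close to the threshold, was lost in 23 cases, with 0.0653 and an adjusted p of 0.188 without the first E16.5 lung library.

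SSU-Am512 rose by a small amount in adults. In adult liver it scored 0.970, 0.976 and 0.982, against 0.926, 0.939 and 0.894 in E16.5 liver. All 3 adult libraries lay above all 3 from E16.5, a difference of 0.0564 ± 0.0161 (SE, limma adjusted p = 0.00891). With library medians set equal that liver difference was 0.00208 (limma adjusted p = 0.978). In the other tissues its adult minus E16.5 difference lay between -0.00267 in lung and 0.0246 in brain and did not pass. Over 5 tissues SSU-Am512 averaged 0.965 in adults and 0.945 at E16.5 (0.0197 ± 0.0072, limma adjusted p = 0.0321), with the adult group mean higher in 4 of 5 tissues. That difference is smaller than the median shift of all sites. With library medians set equal it became -0.014 (limma adjusted p = 0.257), in the opposite direction, and the weighting in which set differences cancel gave 0.00641 (limma adjusted p = 0.791). The call in the mean was lost in 9 of 33 cases when a single library was left out, with differences of 0.0171 to 0.0237 in limma over all 33 cases, and the liver call was lost without the third E16.5 liver library (0.0437, adjusted p = 0.0649). The score of 1.0 in the third E16.5 lung library rests on a neighbourhood of 13.7 read ends.

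SSU-Gm509 had the widest range of group means after SSU-Cm462 and was lowest in E9.5 heads. It scored 0.958, 0.982 and 0.962 in adult brain, against 0.653, 0.875 and 0.739 in E9.5 whole heads. The 2 groups do not overlap, and the difference was 0.212 ± 0.0613 (SE, limma adjusted p = 0.0132), or 0.161 (adjusted p = 0.0668) without the first head library and 0.158 (0.0664) with library medians set equal. In E16.5 brain it scored 0.888, 0.8999 and 0.922, again above every E9.5 head library, but that difference of 0.147 ± 0.0613 did not pass in limma (adjusted p = 0.155). Without the second head library it was 0.207 and passed (limma adjusted p = 0.04). E16.5 brain and E9.5 heads belong to the same library set, and adult brain to another. Taken from 5′ ends alone, SSU-Gm509 scored 0.889, 0.913 and 0.917 in E16.5 brain, against 0.637, 0.789 and 0.754 in E9.5 heads, and the difference of 0.180 ± 0.0582 passed (limma adjusted p = 0.0236). From 3′ ends alone the scores were 0.869, 0.859 and 0.938 in E16.5 brain and 0.661, 0.882 and 0.737 in E9.5 heads, which overlap. Whole head holds more than brain, so stage and tissue makeup cannot be told apart in either comparison.

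SSU-Am512, 3 nucleotides from SSU-Gm509 and guided by the other snoRNA of Nop58, had its 2 lowest group means in E16.5 liver and E9.5 heads. It scored 0.960, 0.972 and 0.978 in adult brain, against 0.930, 0.943 and 0.902 in E9.5 heads (difference 0.0447 ± 0.0161, SE, limma adjusted p = 0.0326). With library medians set equal the difference turned to -0.00899 (limma adjusted p = 0.936). The groups do not overlap, and the call was lost in limma in 5 of 33 cases when a single library was left out, with 0.0332 (adjusted p = 0.171) without the third head library. From 5′ ends alone SSU-Am512 scored 0.936, 0.949 and 0.952 in E16.5 brain, against 0.857, 0.829 and 0.877 in E9.5 heads. That difference of 0.0911 ± 0.0238 within a library set passed in limma (adjusted p = 0.00696). The summed score gave 0.0202 for it, with an adjusted p of 0.626. From 3′ ends alone the scores were 0.955, 0.940 and 0.949 in E16.5 brain and 0.976, 0.956 and 0.907 in E9.5 heads, which overlap. The 5′ scores of the heads rest on neighbourhoods of 203, 87.8 and 89.5 read ends. Over the 11 group means SSU-Gm509 and SSU-Am512 correlated with a Pearson r of 0.507, a description only, since the points share libraries and the 2 sites share neighbours.

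Across tissues SSU-Gm509 was 0.958 to 0.982 in all 6 libraries of adult brain and liver. In set 2, which includes adult kidney and lung, it averaged 0.824. In adult kidney it scored 0.750, 0.915 and 0.807, against 0.863, 0.962 and 0.89999 in E16.5 kidney (difference -0.0842 ± 0.0613, SE, limma adjusted p = 0.421). In adult heart it scored 0.920, 0.978 and 0.880, against 0.677, 0.881 and 0.816 in E16.5 heart (difference 0.135 ± 0.0613, limma adjusted p = 0.236). In adult lung it averaged 0.844, against 0.825 in E16.5 lung (difference 0.0198 ± 0.0613, limma adjusted p = 0.849). The groups overlap in all 3 of these tissues, and the adult mean was the lower one in kidney alone. In brain and liver every adult library was higher, as at 44.9% and 51.4% of all sites. The means there were 0.967 against 0.903 in brain and 0.969 against 0.882 in liver. Neither passed in limma from the summed score over all 33 libraries. The SE pools the spread of all 11 groups, whose SDs at this site ran from 0.00135 in adult liver to 0.126 in E16.5 lung. With the compared groups fitted alone, the brain difference of 0.0644 passed (limma adjusted p = 0.0424) and the liver difference did not. The spread between replicates at SSU-Gm509, an SD of 0.0765 within groups, leaves a 2 SE interval of -0.0105 to 0.0991 for the mean difference over 5 tissues. That mean was 0.0443 and did not pass (limma adjusted p = 0.187), whereas from 5′ ends alone it was 0.0633 ± 0.026 and did (limma adjusted p = 0.0356).

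SSU-Cm462, the site of U14, gave opposite pictures in the 2 kinds of read end. From 5′ ends alone its score was 0.929 to 1.0 in all 33 libraries, with a mean of 0.981, the tenth highest of the 107 sites tested. From 3′ ends alone it ran between 0 and 0.984 with a mean of 0.628. In the second adult heart library 6 read ends at the site were 5′ ends and 4609 were 3′ ends, with neighbourhoods of 321 and 4963, and the summed score was 0.127. In the second adult liver library there were 4 and 25 ends, with neighbourhoods of 214 and 1566, and the summed score was 0.984. Over all libraries the site held 112 5′ ends and 16326 3′ ends. Read ends of the stretch around SSU-Cm462 were mostly 3′ ends, 88.1% of the neighbourhood, so the summed score follows them. The 5′ score rests on few reads, down to a neighbourhood of 1.36 in the third E16.5 lung library.

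**Figure D2:**
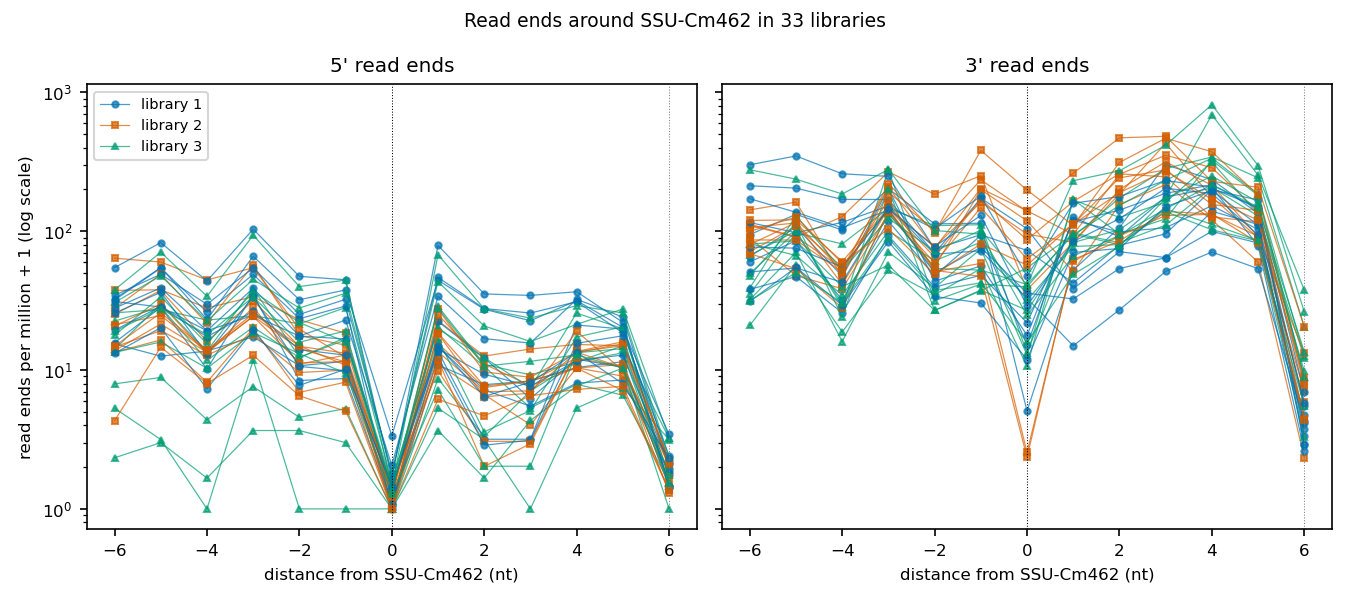
Read ends per 1000000 of a library, plus 1 (log scale), at each distance from SSU-Cm462 in 33 libraries, with 5′ ends on the left and 3′ ends on the right and a marker for each library number. Dotted lines mark SSU-Cm462 at 0 and SSU-Am468 at 6. Both sites dip in 5′ ends in nearly all libraries, while in 3′ ends SSU-Am468 dips in all and SSU-Cm462 dips deeply in few.

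The scatter at SSU-Cm462 lay within groups and went with library number. The second library of a group had the lowest summed score in 9 of 11 groups, in all groups of sets 2 and 3. In adult brain and liver, which are set 1, the second library was instead the highest, with 0.978 and 0.984, against 0.677 and 0.667 for the other adult brain libraries and 0.769 and 0.832 for the other adult liver libraries. In E16.5 kidney the 3 libraries scored 0.217, 0.0794 and 0.906. Within groups the SD was 0.251, the second largest of 107 sites, against 0.0163 from 5′ ends alone. The largest adult minus E16.5 difference at SSU-Cm462 was 0.285 ± 0.196 (SE) in liver (limma adjusted p = 0.272), and none of its comparisons passed. From 5′ ends alone the mean difference over tissues was -0.0042 ± 0.00553 (limma adjusted p = 0.501), with a 2 SE interval of -0.0153 to 0.00686. Why the 3′ ends differ between libraries was not tested.

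**Figure D3:**
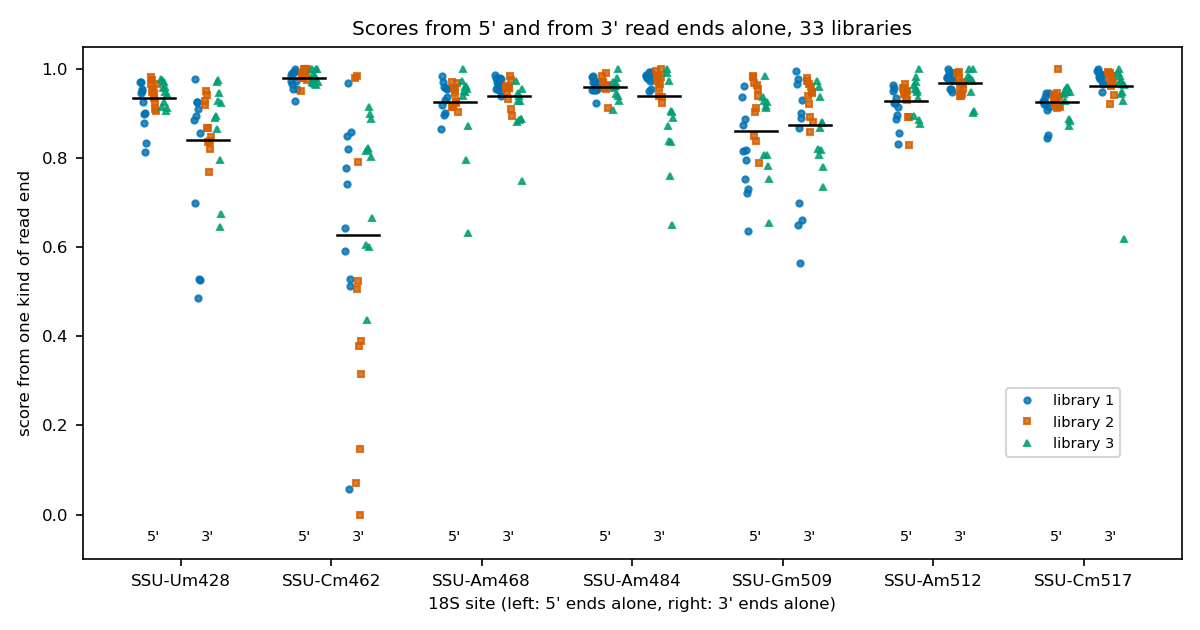
Scores from 5′ ends alone (left of each pair) and 3′ ends alone (right) at the 7 sites in 33 libraries, with a black line at the mean and a marker for each library number. SSU-Cm462 is near 1 in all 5′ scores and spread over the whole range in 3′ scores, and SSU-Um428 also falls lower in 3′ scores.

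Library number also went with the score at other sites of the stretch, on a smaller scale. SSU-Am484 had its lowest summed score in the third library of all 11 groups, with 0.847 in E16.5 brain, 0.894 in E16.5 heart and 0.908 in adult kidney among them. From 5′ ends alone the third library was lowest in 4 groups, and the within-group SD was 0.0179, against 0.0765 from 3′ ends. SSU-Gm509 was lowest in the first library of 7 groups, in all 5 groups of set 2 among them. SSU-Am468, whose neighbourhood overlaps that of SSU-Cm462 and holds 90.0% 3′ ends, was lowest in the third library of 8 groups. At SSU-Um428 the first library was lowest in 6 groups, in all 4 groups of set 3 among them. From 3′ ends alone its first library was lowest in all 4 groups of set 3, and its second in all 5 groups of set 2. The first libraries of E16.5 kidney, liver and lung then scored 0.487, 0.529 and 0.527 at SSU-Um428.

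SSU-Am468, SSU-Am484 and SSU-Cm517 did not pass in any comparison of the summed score, fitted over all 33 libraries without rescaling. SSU-Cm517 averaged 0.951 in adults and 0.938 at E16.5 over the 5 tissues, a difference of 0.0124 ± 0.0096 (SE, limma adjusted p = 0.289) with a 2 SE interval of -0.00679 to 0.0316. With library medians set equal it turned to -0.0213 and passed (limma adjusted p = 0.0413). That setting adds the same constant to all sites of a library, so its value is relative to the median site. The unshifted score of SSU-Cm517 was not lower in adults. Why it moved less than the median site was not tested. SSU-Am484 averaged 0.963 in adults and 0.935 at E16.5 (0.028 ± 0.0167, limma adjusted p = 0.168). SSU-Am468 averaged 0.950 in adults and 0.928 at E16.5 (0.0218 ± 0.0158, limma adjusted p = 0.253). Their lowest group means were all in E16.5 lung, with 0.911, 0.891 and 0.867, and the third library was the lowest of E16.5 lung at each of them, with 0.848, 0.764 and 0.744. That library is the shallowest of the series. Taken from 5′ ends alone, SSU-Am484 passed between adult brain and E9.5 heads, with 0.984, 0.986 and 0.970 in adult brain, against 0.968, 0.914 and 0.928 in E9.5 heads (0.0431 ± 0.0147, limma adjusted p = 0.0156). With these 2 groups fitted alone its summed score also passed (0.0498, limma adjusted p = 0.0489).

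Counted over the 7 sites, the shares called lay near those over all sites, and a single site weighs heavily among 7. In the mean over 5 tissues 2 of 7 were higher in adults (SSU-Um428 and SSU-Am512) and 0 were lower, where 36.4% of all 107 sites were higher. The median difference of the 7 was 0.028, against 0.0421 for the other 33 listed 18S sites, of which 14 were higher. Higher in adults were 2 of 7 in liver (26.2% of all sites), 1 of 7 in kidney (8.41%), 1 of 7 in lung (14%), and 0 of 7 in brain (5.61%) and heart (5.61%). At an unadjusted p under 0.05 the limma count was 0 in brain and 1 in heart. The weighting in which set differences cancel called 0 of 7, with 1 at an unadjusted p under 0.05 in limma, and 15.9% of all sites. Between adult brain and E9.5 heads 2 of 7 were higher (30.8%), and between E16.5 brain and E9.5 heads 0 of 7 were (6.54%), with 1 at an unadjusted p under 0.05 in limma.

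**Figure D4:**
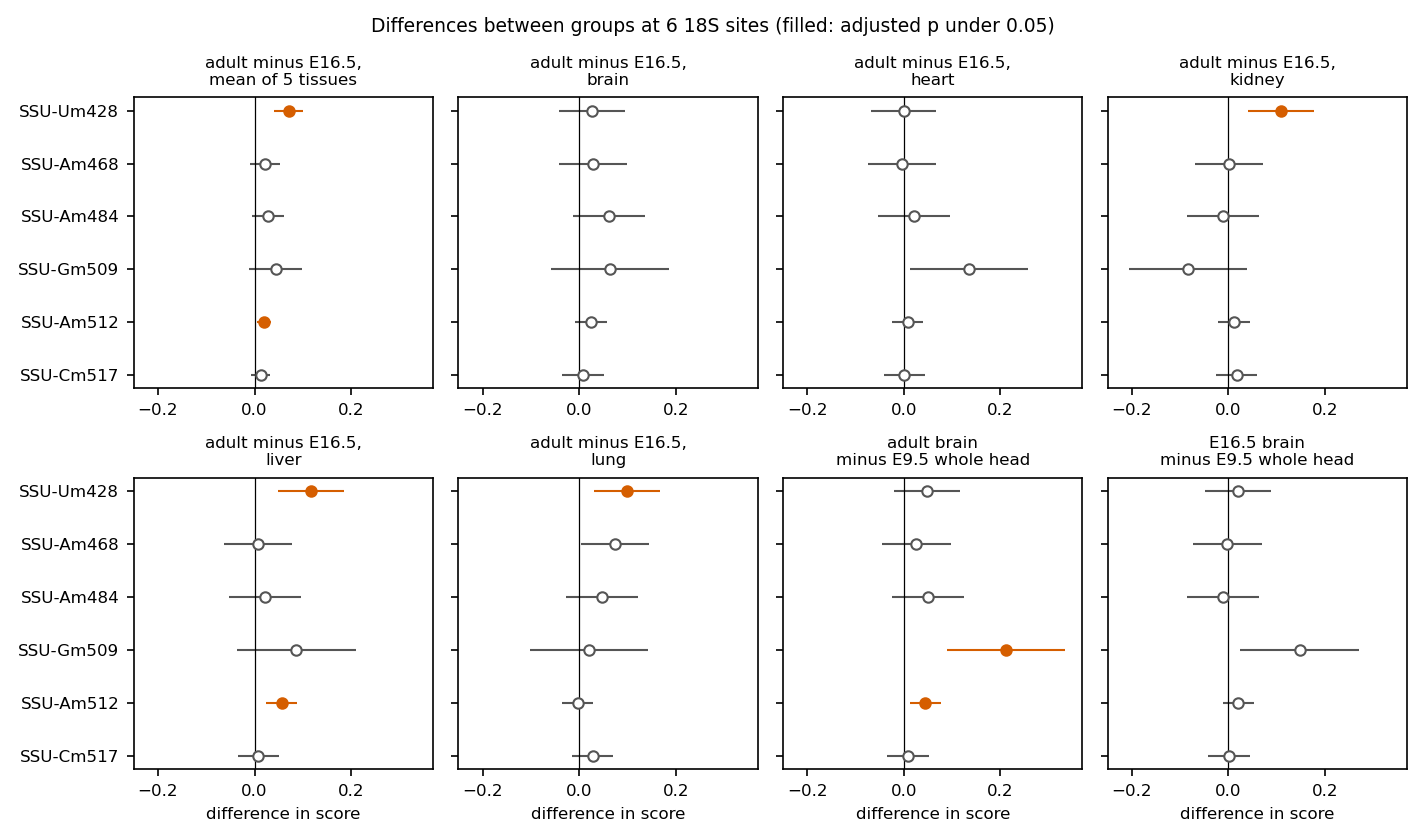
Difference in score (points) with 2 SE on either side (lines) at 6 of the sites in 8 comparisons. Filled points have an adjusted p under 0.05. SSU-Cm462 is not drawn, since its SE was 0.0876 in the mean over tissues and 0.196 elsewhere. SSU-Um428 is filled in the mean and in kidney, liver and lung, SSU-Am512 in the mean, in liver and against E9.5 heads, and SSU-Gm509 against E9.5 heads.

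The read ends taken alone called other numbers. From 5′ ends, 3 of 7 were higher in adults in the mean over tissues (60.7% of all sites), 3 of 7 in liver (56.1%), 3 of 7 in adult brain against E9.5 heads (56.1%) and 2 of 7 in E16.5 brain against E9.5 heads (24.3%). SSU-Gm509 and SSU-Am512 were among them in each of these 4 comparisons. From 3′ ends, 2 of 7 were higher in the mean over tissues (17.8%), 1 of 7 in kidney (3.74%) and 2 of 7 in liver (12.1%), and these were SSU-Um428 and SSU-Am512. SSU-Am512 in liver passed from the sum, from 5′ ends (0.0984 ± 0.0238, SE, limma adjusted p = 0.000992) and from 3′ ends (0.0579 ± 0.0148, limma adjusted p = 0.00653). These scores come from the same libraries, so they are not independent. The 5′ scores of E16.5 liver rest on neighbourhoods of 29.8, 84.3 and 44.1 read ends. From the sum the call was lost with the liver groups fitted alone (0.0564, limma adjusted p = 0.0546). It was also lost after thinning to the shallowest library (0.0650, limma adjusted p = 0.284).

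Libraries without overlap were common over all sites, too. Every adult library lay above every E16.5 library at 4 of 7 sites in brain (SSU-Um428, SSU-Am484, SSU-Gm509 and SSU-Am512, where 44.9% of all sites did so), at 0 of 7 in heart (17.8%), at 1 of 7 in kidney (24.3%), at 3 of 7 in liver (51.4%) and at 1 of 7 in lung (19.6%). SSU-Um428 was the site in kidney and lung, and SSU-Um428, SSU-Gm509 and SSU-Am512 were the sites in liver. Against E9.5 heads, every adult brain library was higher at 4 of 7 sites (64.5% of all) and every E16.5 brain library at 1 of 7 (28%), which was SSU-Gm509.

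Among tissues of one stage none of the 7 sites passed. A limma F test over the 5 adult tissues called 0 of 7 (4.67% of all sites), with 0 at an unadjusted p under 0.05. Over the 5 E16.5 tissues it called 0 of 7 (16.8%), with 1 at an unadjusted p under 0.05, which was SSU-Um428 (adjusted p = 0.0754). A test of whether that stage difference was unequal in the 5 tissues called 0 of 7 in limma (13.1%), with 0 at an unadjusted p under 0.05. At SSU-Um428 the order of groups ran, high to low, adult kidney, brain, lung and liver, then E16.5 brain and heart, adult heart, E9.5 head, and E16.5 kidney, lung and liver, with means between 0.972 and 0.816. Of its 10 neighbouring pairs in that order, 1 did not overlap, adult kidney and adult brain. At the other 6 sites all neighbouring pairs overlapped, so their orders are not resolved by 3 libraries a group.

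For each site the listed sites with the most similar group means were found by Pearson r over the 11 groups. These values describe the 11 means, which share libraries and depth. SSU-Um428 was most like LSU-Gm4588 (r = 0.937) and 5.8S-Gm75 (r = 0.937), in 28S and 5.8S rRNA. SSU-Gm509 was most like LSU-Am1858 (r = 0.929) and LSU-Am389 (r = 0.929). SSU-Am512 was most like LSU-Um2402 (r = 0.892) and SSU-Am590 (r = 0.888). SSU-Am484 was most like LSU-Am391 (r = 0.912) and LSU-Gm3923 (r = 0.863), and SSU-Cm517 was most like SSU-Am166 (r = 0.934) and LSU-Cm3820 (r = 0.920). SSU-Am468 was most like LSU-Cm2811 (r = 0.943) and SSU-Cm517 (r = 0.893), the only match that was itself one of the 7. SSU-Cm462 had the loosest match, LSU-Cm2791 (r = 0.792) and LSU-Am1521 (r = 0.784). Among the 7, r ranged between -0.0839 for SSU-Cm462 with SSU-Am484 and 0.893 for SSU-Am468 with SSU-Cm517, so the sites of the stretch did not share a single pattern.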

How the data were processed

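RNA was partly cut with alkali, and short fragments were ligated with a tRNA ligase and read on an Ion Proton, per the labels' protocols. Tools listed in the submitters' processing notes are cutadapt 2.0 and Bowtie2 2.3.4.1, without settings. The authors deposited counts of 5′ ends, 3′ ends and their sum for 6878 rRNA nucleotides per library, and the score as a fraction. A further deposited table gave other values, the group means at 108 sites after barcode correction. The fraction was rebuilt from the counts within 5e-10. A column's group came from its sheet's name; 0 columns were left unmapped. Scores were tested with limma 3.58.1 (R 4.3.3, trend) over 33 libraries at 107 sites with at least 10 neighbouring read ends in every library, two-sided, with Benjamini-Hochberg adjustment over the 107 and a threshold of 0.05. Fits were tested on simulated data. Figures and sums used Python 3.11.15, numpy 2.4.6, pandas 2.3.3 and matplotlib 3.10.9. Every one of the 7 sites is named, with the 2 sites most like it. The sites, lists and tests were chosen with earlier results of these data known. Replicates are separate samples by the design text; chi-square per degree of freedom between them was at least 48.7. PCR reads without molecular identifiers are not independent molecules, so counting SDs cover counting error only. Library sets were read from which groups the authors corrected at SSU-Am1031 (set 3) and SSU-Gm683 (set 2).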

Additional observations from a re-analysis of the deposited data

How the results depend on the processing

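The alternatives changed which of the 7 sites passed more often than they changed direction. In the mean over 5 tissues SSU-Um428 passed in 46 of 47 other settings, missing only in the set-cancelling combination, and its difference lay between 0.0367 and 0.139, beside 0.123 on the arcsine scale. SSU-Am512 passed in 33 of 47 and reversed with library medians set equal, to -0.014, and to -0.00899 in adult brain against E9.5 heads. Under the same setting SSU-Cm517 turned to -0.0213 in the mean and passed as lower in adults relative to the median site (limma adjusted p = 0.0413). Its unshifted score was not lower in adults. Of the 7 sites, 1 passed in the mean after thinning, on the arcsine square root scale and with 2 neighbours a side, and 0 with set differences cancelled, whether by the sum, by 5′ or by 3′ ends (the last 2 chosen after seeing the data; limma gave 1 at an unadjusted p under 0.05 by the sum). With a minimum of 50 neighbouring read ends only SSU-Cm462 and SSU-Am468 could be tested, so the counts in the mean, kidney, liver, lung and adult brain against heads were 0 there by construction. In kidney the count was 0 from 5′ ends, with equal medians, after thinning and with the 2 groups fitted alone; in liver it was 0 in the last 3 of these; in lung it was 0 in all 4 and from 3′ ends. Without the 5 shallowest libraries liver had 0 (SSU-Am512 at 0.0367, limma adjusted p = 0.0782), kidney 2, with SSU-Cm517 added (0.0453, limma adjusted p = 0.00525), and the E16.5 tissues 1 (SSU-Cm517, adjusted p = 0.00663). SSU-Um428 in lung, with an adjusted p just under the threshold, passed in 18 of 46 settings. With the compared groups alone brain gained SSU-Gm509 (0.0644, limma adjusted p = 0.0424) and adult brain against heads gained SSU-Am484 (0.0498, adjusted p = 0.0489), 1 site each. Against E9.5 heads adult brain had 0 from 3′ ends and with equal medians, and 1 after thinning and on the arcsine scale; E16.5 brain had 2 from 5′ ends. The test among E16.5 tissues gained 1 after thinning (SSU-Am484) and with 2 neighbours (SSU-Um428), and the test of variation between tissues gained 1 with 2 neighbours (SSU-Um428, adjusted p = 0.0477). Leaving out a library in turn gave 1 to 2 calls in the mean and in liver, 0 to 1 in kidney, lung, E16.5 brain against heads and among E16.5 tissues, 0 to 2 in adult brain against heads, and 0 in brain, heart, among adult tissues and for variation between tissues; an arm left with 2 libraries was assumed to vary like the others. SSU-Am468 in lung passed in limma, at 0.112 (adjusted p = 0.0319), without the first E16.5 lung library. The mean level moved beyond the replicate spread at SSU-Um428 from 3′ ends (0.840) and with 2 neighbours (0.858), at SSU-Cm462 from 5′ ends (0.981) and at SSU-Am512 from 5′ ends (0.928). Nothing in the labels says that replicate numbers pair the libraries. Correlations of same-numbered libraries ran between -0.767 and 0.921 with 80 of 165 over 0.1, while 29 of 33 libraries correlated best with their own number, a hint from the data of something shared, so the pairing was not taken as part of the design. With the replicate number as a block, E16.5 brain against heads gained 1 (SSU-Gm509, adjusted p = 0.0356), the test among E16.5 tissues gained 1 (SSU-Um428, adjusted p = 0.0217), and no other count changed.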
